A study of Arabidopsis thaliana with 18 samples.

Results

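The 9 genes described here encode the core of DNA replication licensing and the replication clamp in Arabidopsis thaliana: MCM2, MCM3, MCM4, MCM5, MCM6, MCM7, PCNA1, PCNA2 and CDC6. They were taken by locus from the table of counts per gene, as 9 of its 32832 genes, and all 9 passed the filter on low counts and were among the 19679 genes tested. The RNA came from whole seedlings of atm1-1 and Col-0, 5 days old, grown on half-strength medium with 15 mM sucrose, with 15 mM glucose or with no added sugar, the last being the mock treatment. The 6 groups were atm1-1 sucrose, atm1-1 glucose, atm1-1 mock, Col-0 sucrose, Col-0 glucose and Col-0 mock, with 3 biological replicates each, 18 libraries in all. Col-0 is the wild-type accession, and atm1-1 is a single T-DNA insertion line of ATM1, which encodes a class VIII myosin motor protein. The libraries were QuantSeq 3′ libraries, in which a read comes from the end of a polyadenylated transcript. The study looked at whether ATM1 is needed for sugar-activated growth and S-phase entry in roots. S-phase cells were labelled there in other seedlings, which had first been held quiescent in low light without sugar. The comparisons below describe how the licensing genes stood in the whole seedlings that were sequenced.

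Licensing is the step that prepares each origin of replication for a single firing per cell cycle. The origin recognition complex marks the origin, and CDC6 and CDT1 then load the MCM2 to MCM7 hexamer, which is the core of the replicative helicase. Once S phase begins, CDC45 and the GINS complex activate that helicase, and PCNA, a ring-shaped clamp, holds the DNA polymerases on the template. In Arabidopsis, as in animals, many of these genes are targets of E2F transcription factors, which the retinoblastoma-related protein RBR restrains, and their transcripts are typical of dividing cells in root and shoot meristems.

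Because the genes are known E2F targets, their promoters were searched for the E2F element in the forms TTTCCCGC, TTTCGCGC, TTTGCCGC and TTTGGCGC on both strands, from 250 bases before to 50 bases after the annotated gene start in the RefSeq annotation of TAIR10.1. A match was found in 5 of the 9 members, all of them MCM genes, while 1.76% of 27443 promoters of the same length held one. The matching 30-base windows are shown because E2F factors are the regulators these genes are best known for. They are written 5′ to 3′ along the gene, with the element in capitals.
MCM2: tggcgccaataTTTCCCGCctaatcgacga
MCM3: ggaaatcaaacGCGCCAAAcaagcgcgtag
MCM4: cagtaataatgGCGCCAAAatcaagtgaag
MCM5: cggcccatcagTTTCCCGCcacattgttcc
MCM6: tatactttttaGCGGGAAAatgttagagga

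The windows lie at chr1:16970189-16970218 on the plus strand for MCM2, chr5:18773858-18773887 on the minus strand for MCM3, and chr2:7130746-7130775 on the minus strand for MCM4. Those of MCM5 and MCM6 lie at chr2:3527501-3527530 and chr5:18010695-18010724, both on the minus strand. The element began 14 bases before the gene start in MCM2, 19 bases in MCM5, 35 bases in MCM4, 46 bases in MCM6 and 170 bases in MCM3. In MCM3, MCM4 and MCM6 it was read on the strand opposite to the gene. No match was in the window of MCM7, PCNA1, PCNA2 or CDC6. The site II element, searched as TGGGCC or TGGGCT on both strands, was in 6 of the 9 members (MCM2 to MCM6 and PCNA2), against 21.7% of all promoters. The telo box AAACCCTA was in 1 member, PCNA1, against 6.22% of all promoters. In the members, no match of one element overlapped a match of another. A match describes the sequence and not a bound site, and the lack of one says only that these letters are not in this window.

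**Figure D1:**
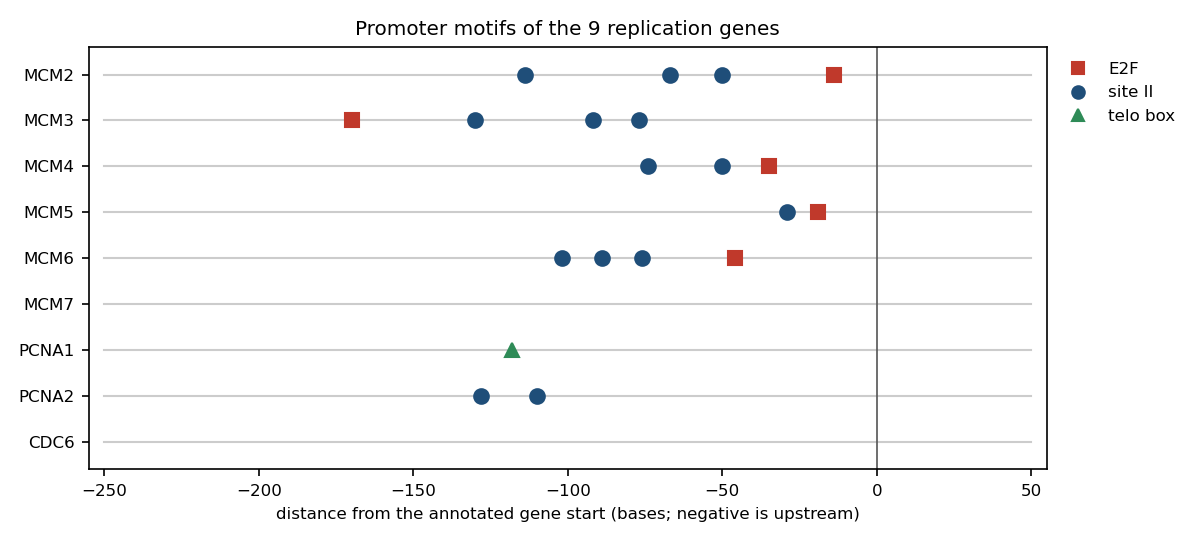
Positions of the 3 promoter motifs in the 9 replication genes, in bases from the annotated gene start (negative values are upstream); each grey line is a searched promoter window and each symbol the start of a match. The E2F element (squares) is in 5 MCM genes, within 46 bases upstream of the start in all of them but MCM3, where it is 170 bases upstream.

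The genes are spread over the genome. In TAIR10.1, MCM2 (AT1G44900) lies at chr1:16970214-16974753 and PCNA1 (AT1G07370) at chr1:2263037-2264553, both on the plus strand. MCM4 (AT2G16440) lies at chr2:7126279-7130729, MCM5 (AT2G07690) at chr2:3522984-3527500 and PCNA2 (AT2G29570) at chr2:12649906-12651753, all on the minus strand, and CDC6 (AT2G29680) at chr2:12689171-12693121 on the plus strand. MCM7 (AT4G02060, also called PROLIFERA) lies at chr4:900636-905591 on the plus strand, MCM3 (AT5G46280) at chr5:18769649-18773706 and MCM6 (AT5G44635) at chr5:18006212-18010667, both on the minus strand. Of the 451 stretches of 50 bases, the read length, in the last 500 bases of each member's transcript, 0 occurred at a second place in the genome, so reads of PCNA1 and PCNA2 can be told apart. The last 500 bases of PCNA2 overlap AT2G29560 on the opposite strand, over 279 bases, and whether strand was used in counting is not given in the sources used here. PCNA2 values may therefore hold reads of that neighbour.

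Libraries held 9450790 to 20256309 counts (median 13192559). Total counts of a member per library ran between 332 and 632 for PCNA2, 96 and 434 for MCM7, 31 and 226 over MCM2 to MCM6 and PCNA1, and only 1 to 26 for CDC6. Values below are CPM, counts relative to the library's size, scaled with edgeR's TMM factors, fold changes are log2 values from edgeR's quasi-likelihood fit of the 6 groups with their standard error (SE), and q is the p-value adjusted by Benjamini and Hochberg over all 19679 genes, with q of at most 0.1 taken as a call. The biological coefficient of variation was 13% to 24.6% for the members other than CDC6, 42.1% for CDC6 and 20.7% for the median gene tested. ATM1 itself (AT3G19960) had 311 to 623 counts per library and differed in atm1-1 over Col-0 by −0.08 on the log2 scale (SE 0.11, q = 0.86 by edgeR). By RT-PCR the study detected no full-length ATM1 transcript in atm1-1, while the part upstream of the insertion was found. A 3′ tag does not read across the insertion, and why these counts did not differ was not tested. The genotype labels are not settled by this value. The number of genes called between the genotypes was 618 without atm1-1 glucose replicate 1, in place of 174, and 83 to 228 without any other library, and without Col-0 mock replicate 1 the number called for sugar was 1451 in place of 2307.

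The MCM genes encode the subunits of the helicase ring, and each is given here by its group means (mean ± SD, n = 3). MCM2 averaged 6.43 ± 0.895 CPM in atm1-1 sucrose, 5.00 ± 1.17 in atm1-1 glucose and 6.77 ± 1.08 in atm1-1 mock, and 5.16 ± 1.27 in Col-0 sucrose, 5.50 ± 1.07 in Col-0 glucose and 5.51 ± 1.32 CPM in Col-0 mock. Its highest mean was that of atm1-1 mock and its lowest that of atm1-1 glucose, so the genotypes were mixed in the order. MCM3 averaged 5.03 ± 0.238 CPM in atm1-1 sucrose, 4.70 ± 1.78 in atm1-1 glucose and 4.51 ± 1.03 in atm1-1 mock, and 4.06 ± 0.976 in Col-0 sucrose, 3.67 ± 0.912 in Col-0 glucose and 3.18 ± 0.95 CPM in Col-0 mock. Here all atm1-1 means lay above all Col-0 means, which was also the case for MCM4, MCM6 and PCNA2. The share of all genes with this order was not counted. The means of MCM4 were 11.4 ± 2.83 CPM in atm1-1 sucrose, 12.5 ± 2.65 in atm1-1 glucose and 12.0 ± 0.187 in atm1-1 mock, and 8.42 ± 0.888 in Col-0 sucrose, 8.83 ± 0.387 in Col-0 glucose and 9.10 ± 0.841 CPM in Col-0 mock. Those of MCM6 were 7.68 ± 1.31 CPM in atm1-1 sucrose, 7.31 ± 2.83 in atm1-1 glucose and 7.21 ± 0.939 in atm1-1 mock, and 6.20 ± 0.419 in Col-0 sucrose, 5.73 ± 1.51 in Col-0 glucose and 5.43 ± 0.910 CPM in Col-0 mock. In MCM3 and MCM6 the order within each genotype was sucrose, glucose, mock, and in MCM4 it was glucose, mock, sucrose in atm1-1 and mock, glucose, sucrose in Col-0. MCM5 averaged 8.67 ± 0.251 CPM in atm1-1 sucrose, 8.78 ± 0.925 in atm1-1 glucose and 7.02 ± 0.201 in atm1-1 mock, and 7.72 ± 2.38 in Col-0 sucrose, 6.91 ± 0.900 in Col-0 glucose and 8.0 ± 3.61 CPM in Col-0 mock. The genotypes were mixed in the order of MCM5, with atm1-1 glucose highest and Col-0 glucose lowest. MCM7 averaged 19.6 ± 3.37 CPM in atm1-1 sucrose, 14.9 ± 0.362 in atm1-1 glucose and 17.1 ± 2.07 in atm1-1 mock, and 14.7 ± 1.7 in Col-0 sucrose, 16.4 ± 5.37 in Col-0 glucose and 14.2 ± 3.20 CPM in Col-0 mock. MCM7 was highest in atm1-1 sucrose and lowest in Col-0 mock.

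PCNA1 and PCNA2 encode near-identical clamp proteins, and CDC6 an ATPase that loads the helicase. PCNA1 averaged 6.5 ± 2.10 CPM in atm1-1 sucrose, 4.25 ± 0.486 in atm1-1 glucose and 6.37 ± 1.92 in atm1-1 mock, and 6.57 ± 0.899 in Col-0 sucrose, 5.25 ± 0.311 in Col-0 glucose and 5.21 ± 0.831 CPM in Col-0 mock. PCNA2 averaged 33.0 ± 3.07 CPM in atm1-1 sucrose, 32.8 ± 1.51 in atm1-1 glucose and 39.5 ± 4.22 in atm1-1 mock, and 29.0 ± 0.293 in Col-0 sucrose, 31.4 ± 4.13 in Col-0 glucose and 30.0 ± 3.48 CPM in Col-0 mock. PCNA1 was highest in Col-0 sucrose and lowest in atm1-1 glucose, and PCNA2 highest in atm1-1 mock and lowest in Col-0 sucrose, so the clamp genes had their highest means in different groups. CDC6 averaged 0.528 ± 0.0701 CPM in atm1-1 sucrose, 0.732 ± 0.284 in atm1-1 glucose and 1.28 ± 0.203 in atm1-1 mock, and 0.688 ± 0.424 in Col-0 sucrose, 0.543 ± 0.30 in Col-0 glucose and 0.404 ± 0.286 CPM in Col-0 mock. CDC6 was highest in atm1-1 mock and lowest in Col-0 mock. The highest group mean was 1.27 to 1.58 times the lowest for the MCM and PCNA genes and 3.16 times for CDC6. With the 6 means of each gene put in order of level, 41 of the 45 pairs of neighbours differed by no more than the larger SD of the pair. The exceptions were atm1-1 sucrose below atm1-1 mock for PCNA2, atm1-1 glucose below atm1-1 mock for CDC6, atm1-1 mock above Col-0 sucrose for MCM6 and atm1-1 glucose below Col-0 mock for PCNA1. Only the pair of CDC6 had ranges that did not overlap.

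**Figure D2:**
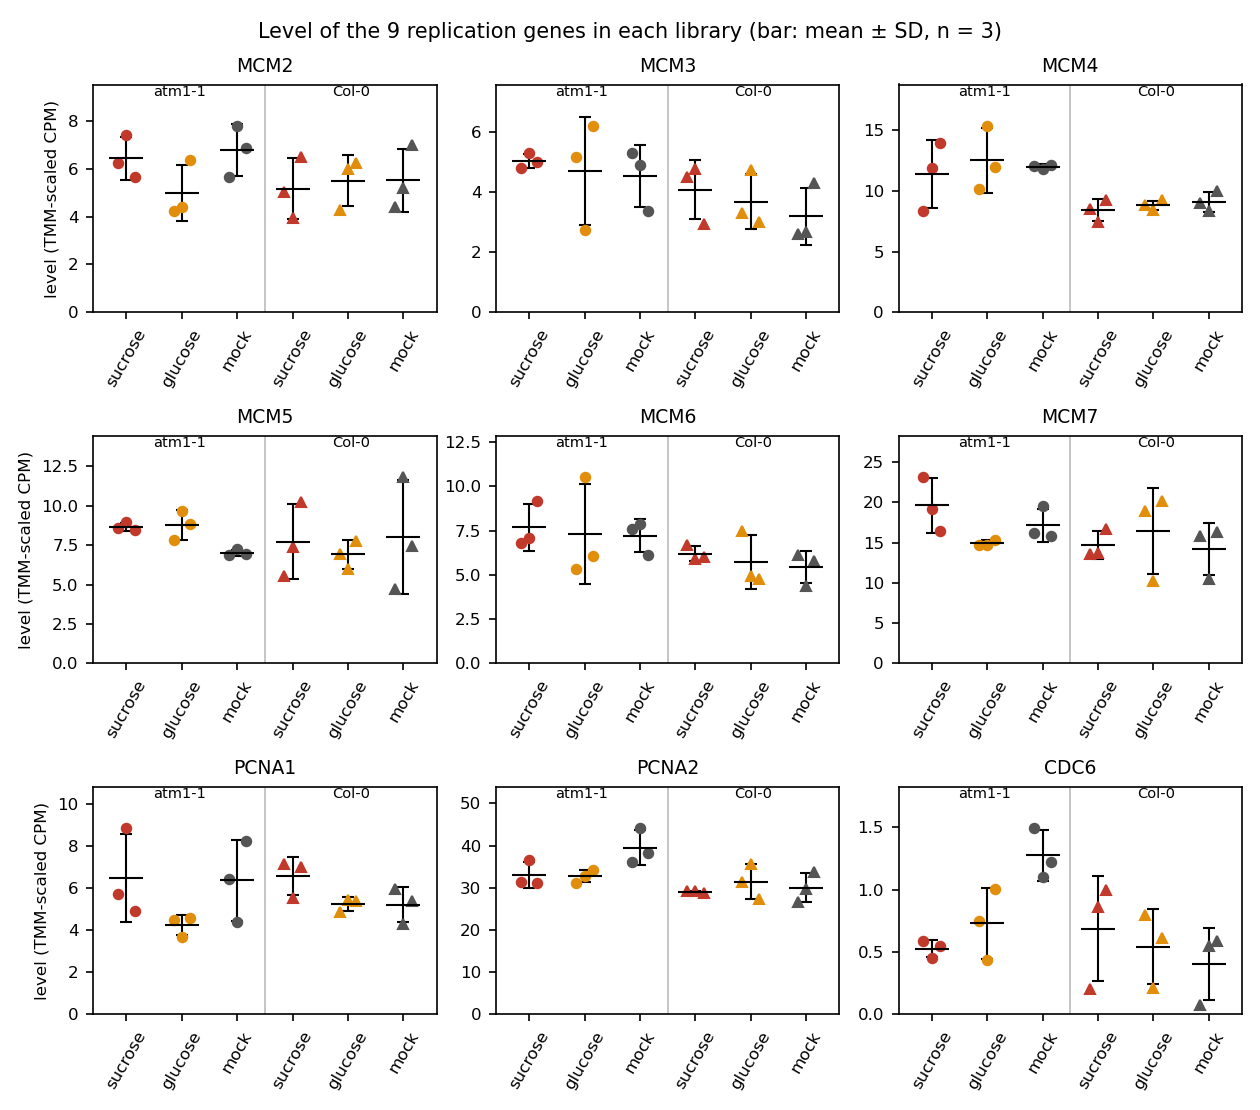
TMM-scaled CPM of each of the 9 genes (vertical axes, each from 0) in every library, with atm1-1 groups left and Col-0 groups right of the grey line; points are libraries and bars the mean ± SD of 3 libraries. MCM4 libraries of atm1-1 mock sit between 11.8 and 12.2 CPM, above all 3 Col-0 mock libraries, and CDC6 reaches its highest value, 1.5 CPM, in atm1-1 mock.

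No change with sugar passed the test for any member. With the sucrose and glucose groups of both genotypes set against the mock groups, 0 of the 9 members were called by edgeR, where 11.7% of all genes tested were (1169 higher and 1138 lower). DESeq2 and limma also called 0 members, and 0 had an unadjusted edgeR p under 0.05, against 21.5% of all genes. Log2 fold changes of sugar over mock lay between −0.20 for CDC6 and 0.19 for MCM3, with 4 members above and 5 below 0, a median of −0.04 and q between 0.446 and 0.901. The median of all genes tested was −0.0026. Apart from CDC6, the 95% intervals of the members reached from −0.48 to 0.60, and what size of change they allow differs from member to member. The narrowest was that of PCNA2, whose log2 fold change was −0.13 with an interval of −0.32 to 0.06. For MCM4 it was −0.04 (−0.31 to 0.22), for MCM7 0.07 (−0.21 to 0.34), and for CDC6, with few counts, −0.20 (−1.12 to 0.72). RNA of whole seedlings does not tell fewer cells of a type from less RNA per cell.

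**Figure D3:**
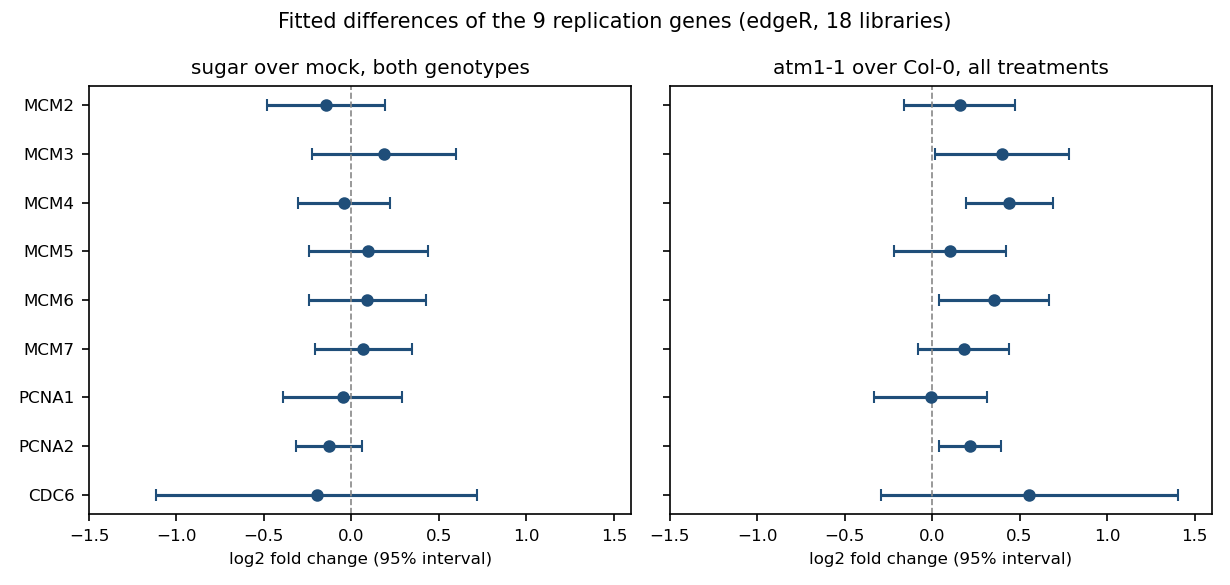
Log2 fold changes of the 9 genes with 95% intervals from edgeR's fit of 18 libraries, for sugar over mock in both genotypes (left) and for atm1-1 over Col-0 over the 3 treatments (right). All 9 intervals include 0 on the left, and on the right those of MCM3, MCM4, MCM6 and PCNA2 lie above 0, with MCM4 highest among these at 0.44.

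Each sugar was also compared with mock within each genotype. With sucrose in atm1-1, 0 of 9 members were called by edgeR, against 5.23% of all genes, and with glucose in atm1-1 0 of 9, against 2.92%. With sucrose in Col-0 0 of 9 were called, against 2.14%, and with glucose in Col-0 0 of 9, against 0.554%. DESeq2 and limma called 0 members in all 4 comparisons. The number with an unadjusted edgeR p under 0.05 was 1 for glucose in atm1-1, namely PCNA1, where 13.7% of all genes were. It was 0 for sucrose in atm1-1, sucrose in Col-0 and glucose in Col-0, where 14.6%, 13.2% and 6.07% of all genes were. The numbers of all genes called shift with single libraries. Leaving out each library of the groups compared in turn gave 369 (without atm1-1 sucrose replicate 1) to 761 for sucrose in atm1-1 in place of 1030, and 296 (without atm1-1 mock replicate 3) to 2105 (without atm1-1 glucose replicate 1) for glucose in atm1-1 in place of 575. In Col-0 it gave 100 (without mock replicate 1) to 708 (without sucrose replicate 1) for sucrose in place of 421, and 52 (without mock replicate 1) to 95 for glucose in place of 109, with 0 members called in each.

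PCNA1 had 4.5, 3.69 and 4.57 CPM in atm1-1 glucose libraries, against 6.46, 4.41 and 8.26 CPM in atm1-1 mock libraries. The ranges overlapped, and the log2 fold change was −0.58 (SE 0.27, edgeR unadjusted p = 0.0447, q = 0.35). Between the sugars, over both genotypes, its log2 fold change of sucrose over glucose was 0.47 (SE 0.19, unadjusted p = 0.0216, edgeR q = 0.487). The same contrast had 0 of 9 members called by edgeR, DESeq2 or limma, against 0.0305% of all genes, and PCNA1 was the 1 member with an unadjusted p under 0.05, where 8.88% of all genes were. The number of all genes called was 6, and 3 (without Col-0 sucrose replicate 2 or 3) to 41 (without atm1-1 glucose replicate 1) with each library left out. Sucrose libraries held 5.71, 8.88 and 4.91 CPM of PCNA1 in atm1-1 and 7.16, 5.54 and 7.03 in Col-0, and the Col-0 glucose libraries 4.89, 5.46 and 5.40 CPM. Col-0 sucrose libraries thus all lay above Col-0 glucose libraries, and atm1-1 sucrose libraries above atm1-1 glucose libraries. How many of all genes were separated in this way was not counted, so nothing is read from it.

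In atm1-1, 3 members had every glucose library below every mock library, while 7.72% of all genes tested did. They were MCM7 with 14.7, 14.7 and 15.3 CPM in atm1-1 glucose against 16.1, 19.5 and 15.8 CPM in atm1-1 mock, PCNA2 with 31.2, 32.9 and 34.2 against 36.1, 44.2 and 38.2 CPM, and CDC6 with 0.749, 0.440 and 1.01 against 1.5, 1.10 and 1.23 CPM. None of the 3 passed the test, with log2 fold changes of −0.20, −0.27 and −0.79 and edgeR q of 0.735, 0.443 and 0.643. MCM5 went the other way. It had 7.83, 9.67 and 8.83 CPM in atm1-1 glucose and 8.6, 8.95 and 8.46 CPM in atm1-1 sucrose, against 6.86, 7.24 and 6.95 CPM in atm1-1 mock. All sugar libraries of atm1-1 lay above the mock ones, as did those of 7.2% of all genes for glucose and 11.4% for sucrose, with log2 fold changes of 0.32 (SE 0.27, edgeR q = 0.633) for glucose and 0.31 (SE 0.27, edgeR q = 0.672) for sucrose. In Col-0 the MCM5 values were 6.94, 5.99 and 7.79 CPM with glucose and 5.52, 7.41 and 10.2 CPM with sucrose, against 4.69, 11.8 and 7.47 CPM in mock, and the ranges overlapped.

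In Col-0 the largest fitted responses outside CDC6 were those of MCM3 and PCNA1 to sucrose. Col-0 sucrose libraries had 4.5, 4.75 and 2.95 CPM of MCM3, against 2.60, 2.67 and 4.28 CPM in Col-0 mock (log2 fold change 0.35, SE 0.33, edgeR q = 0.701). For PCNA1 the same contrast gave 0.34 (SE 0.27, edgeR q = 0.635). MCM7 had 18.9, 10.3 and 20.2 CPM in Col-0 glucose, against 15.8, 10.5 and 16.3 CPM in Col-0 mock. In both groups replicate 2 was the lowest library, and the log2 fold change was 0.22 (SE 0.22, edgeR q = 0.978).

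Between the genotypes most members were fitted higher in atm1-1, but no member passed the threshold. Averaged over the treatments, 8 of 9 log2 fold changes of atm1-1 over Col-0 were above 0, with a median of 0.22, where 48.4% of all genes tested were above 0 with a median of −0.01. edgeR called 0 of 9 members, against 0.884% of all genes, and limma called 0, while DESeq2 called 1, MCM4. At an unadjusted edgeR p under 0.05 there were 4 members, MCM4, PCNA2, MCM6 and MCM3, where 10.6% of all genes were. The values of MCM4, a helicase subunit, were 12.1, 11.8 and 12.2 CPM in atm1-1 mock against 9.0, 8.32 and 9.99 CPM in Col-0 mock. With glucose they were 10.2, 15.4 and 12.0 CPM in atm1-1 against 8.81, 8.46 and 9.23 CPM in Col-0. With sucrose they were 8.33, 11.9 and 13.9 CPM in atm1-1 against 8.52, 7.48 and 9.25 CPM in Col-0. In all, 8 of the 9 atm1-1 libraries lay above every Col-0 library, the exception being atm1-1 sucrose replicate 1. The share of all genes with such ranks was not counted. The log2 fold change of MCM4 was 0.44 (95% interval 0.19 to 0.69, SE 0.12, edgeR unadjusted p = 0.00118, q = 0.112), which is just outside the threshold. Over the alternative settings its q ran from 0.0419 to 0.255. It was 0.0419 with DESeq2, 0.0993 with no filter on low counts, 0.0422 without atm1-1 glucose replicate 1 and 0.0574 without atm1-1 sucrose replicate 1, and was over 0.1 in the others.

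PCNA2 had 36.1, 44.2 and 38.2 CPM in atm1-1 mock against 26.7, 29.7 and 33.7 CPM in Col-0 mock. With sucrose it had 31.4, 36.5 and 31.0 CPM in atm1-1 against 29.2, 29.1 and 28.6 CPM in Col-0. With glucose it had 31.2, 32.9 and 34.2 CPM in atm1-1 against 31.3, 35.5 and 27.3 CPM in Col-0, and only there did the ranges overlap. Its log2 fold change over the treatments was 0.22 (SE 0.09, edgeR unadjusted p = 0.0201, q = 0.354). MCM6 had 7.61, 7.87 and 6.13 CPM in atm1-1 mock against 6.10, 4.39 and 5.79 CPM in Col-0 mock, the ranges being barely apart. With sucrose MCM6 had 6.78, 7.08 and 9.19 CPM in atm1-1 against 6.68, 5.90 and 6.03 CPM in Col-0, and with glucose 5.33, 10.6 and 6.04 against 7.47, 4.92 and 4.79 CPM. The glucose ranges overlapped, and over the treatments the log2 fold change was 0.35 (SE 0.15, edgeR q = 0.401). For MCM3 it was 0.40 (SE 0.19, edgeR q = 0.448), with 7 of 9 atm1-1 libraries above every Col-0 library, ranks whose share over all genes was not counted. The remaining members gave 0.56 (SE 0.41) for CDC6, 0.18 (SE 0.13) for MCM7, 0.16 (SE 0.16) for MCM2, 0.10 (SE 0.15) for MCM5 and −0.01 (SE 0.16) for PCNA1, and each of their 95% intervals included 0.

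Within single treatments edgeR called 0 of 9 members in mock, against 0.158% of all genes, 0 of 9 with glucose, against 0.0508%, and 0 of 9 with sucrose, against 0.0457%. DESeq2 and limma called 0 in these comparisons too. At an unadjusted edgeR p under 0.05 there were 2 members in mock (PCNA2 and CDC6), 1 with glucose (MCM4) and 0 with sucrose, where 5.51%, 6.48% and 4.62% of all genes were. With each library of the groups compared left out in turn, 13 (without atm1-1 mock replicate 3) to 20 genes were called in mock in place of 31, 5 (without atm1-1 glucose replicate 3) to 190 (without atm1-1 glucose replicate 1) with glucose in place of 10, and 4 (without Col-0 sucrose replicate 3) to 7 with sucrose in place of 9, with 0 members called in each. In mock, 4 members had every atm1-1 library above every Col-0 library (MCM4, MCM6, PCNA2 and CDC6), where 6.29% of all genes did. With glucose these were 2 members (MCM4 and MCM5), where 3.83% of all genes did, and with sucrose 3 members (MCM3, MCM6 and PCNA2), where 5.9% did. PCNA1 was the 1 member with the opposite separation, all atm1-1 glucose libraries lying below all Col-0 glucose libraries, as 4.89% of all genes did. MCM3, MCM4, MCM6 and PCNA2 were fitted higher in atm1-1 in all 3 treatments, 4 of the 9, and the share of all genes that were was not counted. The treatments use separate libraries, but the members were chosen with earlier results of these data known.

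CDC6 had the largest fitted difference and the fewest reads. Its counts were 26, 14 and 15 in the atm1-1 mock libraries, against 1, 7 and 7 in the Col-0 mock libraries. All atm1-1 mock libraries lay above the Col-0 mock ones, also after scaling (1.5, 1.10 and 1.23 CPM against 0.0744, 0.549 and 0.588 CPM). The summed counts, 55 against 15, gave a ratio of 3.3 after scaling, with a 95% exact interval of 1.84 to 6.3 that covers counting error only. The fit, which also takes the spread between libraries into account, gave a log2 fold change of 1.66 (95% interval 0.19 to 3.13, edgeR unadjusted p = 0.0288, q = 0.867). With either sugar the genotypes overlapped. CDC6 had 11, 7 and 6 counts in atm1-1 sucrose against 3, 12 and 22 in Col-0 sucrose, and 9, 5 and 13 in atm1-1 glucose against 9, 2 and 9 in Col-0 glucose. Within atm1-1, all sugar libraries of CDC6 lay below all mock libraries, as did those of 12.1% of all genes for sucrose, and for sucrose the log2 fold change was −1.26 (SE 0.68, q = 0.408 by edgeR).

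Whether the sugar response of the members differed between the genotypes was tested as an interaction. edgeR called 0 of 9 members for sucrose, against 0.0% of all genes, and 0 of 9 for glucose, against 0.0%. Over all genes, 2 were called for sucrose without Col-0 sucrose replicate 1 and 0 without any other library. At an unadjusted edgeR p under 0.05 there were 0 members in either, and 558 and 750 of all genes, while DESeq2 and limma called 0 members. The atm1-1 sucrose response of CDC6 less its Col-0 response was −2.06 (SE 1.00, edgeR unadjusted p = 0.0501, q = 1.00), the log2 fold changes being −1.26 in atm1-1 and 0.79 in Col-0. For the members other than CDC6 the difference in sucrose response lay between −0.30 and 0.35, and in glucose response between −0.59 for PCNA1 and 0.53 for MCM5. Their 95% intervals reached from −1.39 to 1.31, and the narrowest were those of PCNA2, −0.65 to 0.23 for sucrose and −0.77 to 0.11 for glucose.

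Other genes of the pathway were taken from lists by locus and are described by counts and medians. The list headed other licensing factors holds the origin recognition complex, CDT1, MCM8 to MCM10 and relatives, not all of which act in licensing. Of its 14 genes 13 were tested, and edgeR called 0 for sugar over mock, with a median log2 fold change of 0.07. CDC45 and the GINS subunits had 5 of 5 tested, 0 called and a median of −0.0029. The E2F, DP and RBR regulators had 7 of 7 tested, 0 called and a median of 0.08, and the histone H3.1 genes, which supply chromatin in S phase, 5 of 5 tested, 0 called and a median of −0.05. The replication fork list (polymerases, primase, clamp loader, ligase and ribonucleotide reductase) had 20 of 21 tested, 1 higher and 0 lower, with a median of 0.13. The median of all genes in the same contrast was −0.0026 and 11.7% of them were called.

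The 1 pathway gene called was TSO2 (AT3G27060), a small subunit of ribonucleotide reductase, the enzyme that makes deoxyribonucleotides. TSO2 had 39.8, 38.5 and 33.9 CPM in atm1-1 sucrose and 44.5, 22.2 and 32.5 CPM in atm1-1 glucose, against 16.5, 24.9 and 20.8 CPM in atm1-1 mock. In Col-0 it had 33.5, 32.3 and 20.4 CPM with sucrose and 34.1, 29.2 and 26.9 CPM with glucose, against 26.1, 18.4 and 22.4 CPM in mock. Sucrose libraries of atm1-1 and glucose libraries of Col-0 all lay above the mock libraries of their genotype, as in 11.4% and 6.78% of all genes. The other TSO2 ranges overlapped. The log2 fold change of sugar over mock was 0.58 (SE 0.14, edgeR q = 0.00856), and with sucrose in atm1-1 it was 0.85 (SE 0.22, edgeR q = 0.0321). AT5G10390 was taken here as HTR13, the H3.1 gene whose reporter the study imaged. It averaged 49.0 ± 7.95 CPM in atm1-1 sucrose, 50.1 ± 4.29 in atm1-1 glucose and 50.7 ± 10.2 CPM in atm1-1 mock. In Col-0 it averaged 38.6 ± 4.72 CPM with sucrose, 45.3 ± 7.52 with glucose and 38.1 ± 2.53 CPM in mock. Its sugar over mock value was 0.05 (SE 0.11, edgeR q = 0.836). Its atm1-1 over Col-0 value was 0.30 (SE 0.10, edgeR unadjusted p = 0.00559, q = 0.226). AT1G07270, a second CDC6 gene, had 0 to 13 counts per library and was too low to test.

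For atm1-1 over Col-0, 0 genes of these 5 lists were called by edgeR. The medians were 0.12 for the other licensing factors (10 of 13 above 0), 0.13 for CDC45 and GINS (5 of 5), 0.07 for the replication fork (14 of 20), −0.13 for the E2F, DP and RBR regulators (2 of 7) and 0.12 for H3.1 (4 of 5), beside 0.22 for the 9 members and −0.01 for all genes tested.

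**Figure D4:**
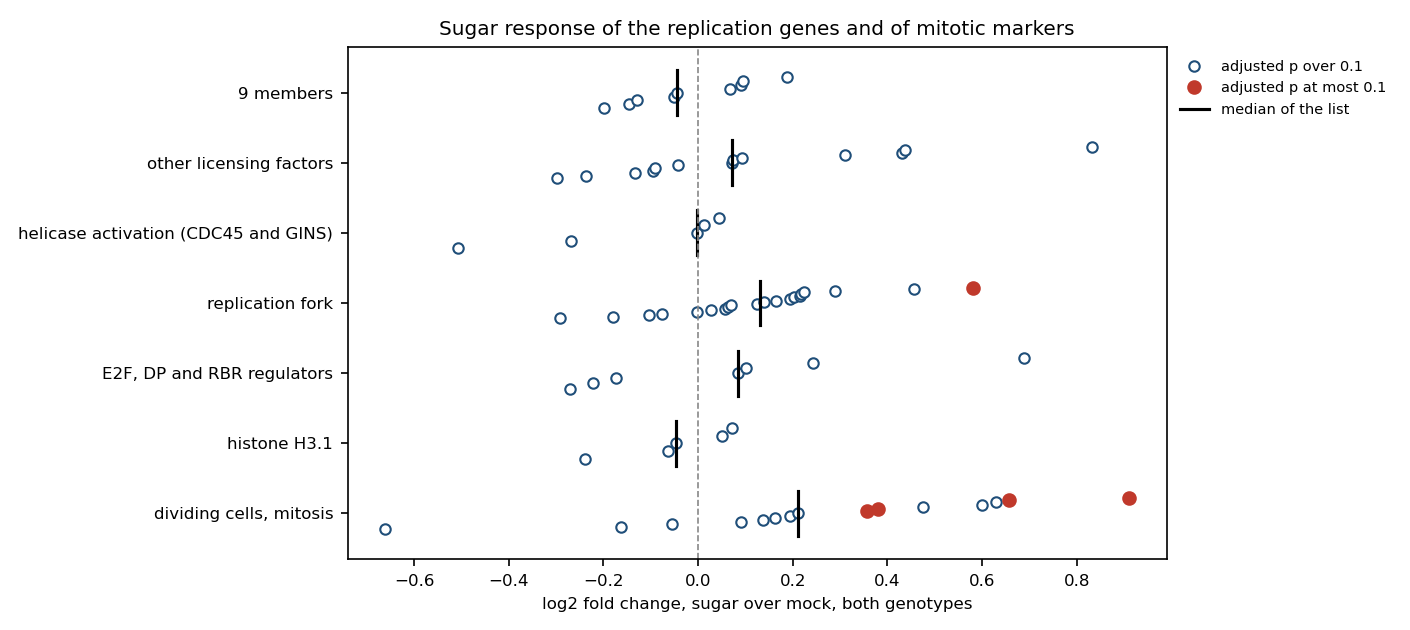
Log2 fold change of sugar over mock, both genotypes, for each tested gene of the pathway lists and of the mitotic markers (points; filled red at adjusted p of at most 0.1), with the median of each list as a black bar. The 9 members lie between −0.20 and 0.19 with no filled point, the replication fork has 1 (TSO2, 0.58) and the mitotic markers have 4.

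Markers of the cells in a seedling were read beside these values. Of 15 markers of mitosis, edgeR called 4 higher with sugar and 0 lower. Of all genes tested, 11.7% were called (1169 higher and 1138 lower). Among the 15 markers, 12 were fitted above 0, with a median of 0.21 and a lowest value of −0.66. The 4 markers called were named for having passed: CYCB2;3 with 0.91 (edgeR q = 0.0231), CYCB2;4 with 0.66 (q = 0.0842), CDKB2;1 with 0.36 (q = 0.0985) and SYP111, also called KNOLLE, with 0.38 (q = 0.0741). The first pair are B-type cyclins, CDKB2;1 is a mitotic kinase and KNOLLE a syntaxin of the dividing cell plate. That the mitotic markers differ from the licensing genes in their sugar response was not tested. The count was 1 without Col-0 mock replicate 1, Col-0 glucose replicate 3, atm1-1 mock replicate 3 or atm1-1 sucrose replicate 3. It was 2 without Col-0 mock replicate 2, Col-0 glucose replicate 2, Col-0 sucrose replicate 2 or 3, atm1-1 mock replicate 1, atm1-1 glucose replicate 2 or atm1-1 sucrose replicate 1. The summed mitotic markers ran between 59.8 and 73.4 CPM in atm1-1 glucose and 63.9 and 72.1 in atm1-1 sucrose, against 46.8 and 58.2 CPM in atm1-1 mock. They ran between 57.9 and 78.3 CPM in Col-0 glucose and 50.4 and 66.4 in Col-0 sucrose, against 45.0 and 53.1 CPM in Col-0 mock. For atm1-1 over Col-0, 0 of the 15 were called, with 14 above 0 and a median of 0.10. Of 6 markers of green tissue, 4 fell with sugar (RBCS1A, LHCB3, PSBR and CA1) and 0 rose, with a median of −0.30. The count was 2 without atm1-1 mock replicate 2, 2 with limma at either pseudocount and 3 to 5 without any other library. Their sum ran between 29970 and 40220 CPM in atm1-1 sucrose and 37300 and 38780 in atm1-1 glucose, against 40080 and 50200 CPM in atm1-1 mock, and in Col-0 between 37450 and 39900 with sucrose and 36960 and 42860 with glucose, against 45930 and 46970 CPM in mock. Of 5 markers of differentiated root, 4 were tested and 1 (PYK10) rose with sugar. Of 7 root meristem markers only 3 were tested, with 0 called, and PLT1, PLT2, BBM and WOX5, which define the stem cell niche, had at most 10 counts in a library. The part that a shift between these tissues has in the members' values was not tested.

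Across the 18 libraries the members varied together only loosely. Pearson's r between the log2 CPM of 2 members had a median of 0.196 over 36 pairs, with 30 above 0 and a range of −0.279 (MCM5 and PCNA1) to 0.687 (MCM4 and MCM6). These are descriptions over libraries that share their scaling. Among the 15 pairs of MCM subunits the median was 0.192. The members were each centred and scaled over the libraries and averaged into a mean scaled level, which was 0.58, 0.78 and 0.52 in atm1-1 mock against −1.04, −0.72 and 0.09 in Col-0 mock. It was 0.28, 0.84 and 0.39 in atm1-1 sucrose against −0.47, −0.46 and 0.13 in Col-0 sucrose, and −0.27, 0.03 and 0.40 in atm1-1 glucose against −0.23, −0.58 and −0.28 in Col-0 glucose. The mock and sucrose ranges of the genotypes did not overlap and the glucose ranges did. Averages of other genes were not taken, so how common such a separation is was not counted.

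The genes whose log2 CPM was most like that mean level over the 18 libraries, out of 16028 genes whose mean log2 CPM was 1 or more, had r between 0.725 and 0.837. They were AT5G06930, AT3G02610, WLIM2a, AT3G19508, EMB1080, AT3G19520, AT1G32090, AT3G55170, LPP2 and AT3G55890, and none is on a list of the pathway. Since the mean level of the members was itself higher in atm1-1 in mock and with sucrose, the choice of these genes favours a difference between the genotypes in the same direction, and none is read from them. In TAIR10.1, 6 of the 10 genes lie on chromosome 3, as ATM1 does. The share of the 16028 genes on chromosome 3 was not counted, so nothing is read from this number. AT3G19508 and AT3G19520 start 187 and 176 kb from ATM1. AT3G02610, EMB1080, AT3G55170 and AT3G55890 start 6390 to 13800 kb from it.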

How the data were processed

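RNA of whole Arabidopsis seedlings was sequenced as QuantSeq 3′ libraries, 18 in all. Reads were mapped to TAIR10 by the authors, and their raw counts on each gene were deposited. A second deposited table holds a signal, those counts brought to one common size for all libraries (column totals of 13479816 to 13489041), and was used only for limma. The submitters' processing notes name STAR, HTSeq and edgeR, without versions. Annotation release and strand setting are not given in the sources used here.

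Low counts were removed with filterByExpr, using all 6 groups, and the rest scaled by TMM and fitted with glmQLFit in edgeR 4.0.16 (R 4.3.3), with 12 comparisons, Benjamini-Hochberg adjustment over 19679 genes and the study's threshold of 0.1. The study used PoissonSeq, which was not run here. SE is the size of the log2 fold change divided by the square root of F, and intervals cover 95%. Fits were tested on simulated data. Alternatives were RLE, library size only, no filter, at least 10 counts in every library, DESeq2 1.42.0, limma 3.58.1 on log2 of the scaled signal plus 1 or 0.1, only the groups compared, a threshold of 0.05, the replicate number as a block, and leaving out each library.

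All 9 members were described. From the pathway lists, up to 3 genes with the lowest p for sugar over mock among those called were named (only 1 was called), with AT5G10390 and AT1G07270, and the 10 genes most like the members. Markers that passed the test were named after their values were seen. The members and lists were chosen with earlier results of these data known. Libraries held 9450790 to 20256309 counts. No molecular identifiers were described, and intervals on counts cover counting error only. RefSeq's TAIR10.1 supplied sequences and coordinates, since the deposited tables carry loci only. All 9 loci matched.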

Additional observations from a re-analysis of the deposited data

How the results depend on the processing

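With 9 members and 12 comparisons, the count of members called was 0 under each alternative, except for atm1-1 over Col-0 over the treatments, where it was 1 (MCM4) with DESeq2 and 1 with no filter on low counts, and 0 to 1 when each library was left out in turn. For sugar over mock, MCM4 turned to 0.0381 when only library size was used, and to 0.03005 and 0.0302 with limma (pseudocounts of 1 and 0.1). PCNA1 turned to 0.0374 and, with limma, to 0.0508 and 0.0513. Leaving out each library gave −0.0881 to 0.0045 for MCM4, −0.0418 to 0.30 for MCM5, −0.0138 to 0.13 for MCM7 and −0.15 to 0.0604 for PCNA1, and for atm1-1 over Col-0 −0.11 to 0.0593 for PCNA1. None of these values was called, and the cause was not tested. Of the 108 fold changes of members, 14 changed sign when only library size was used and 13 with limma, whichever the pseudocount, all of them of 0.11 or less in the main setting. Leaving out each library changed the sign of 82 of 1026 values, of sizes up to 0.46. Library size scaling moved the median of all genes to 0.14 and 0.15 for sucrose over mock in atm1-1 and Col-0, and to 0.11 for sucrose over glucose. Of 45 same-numbered pairs of libraries, 3 had a correlation of deviations over 0.1 (range −0.148 to 0.275). The mean was −0.0119 for these pairs and 0.00597 for pairs with different numbers. Such values cannot show whether same-numbered libraries were grown or collected together. With the replicate block 0 members were called in each comparison and 2 of the 108 signs changed. Over all genes, the number called between the genotypes was 174, and 545 with no filter, and for glucose in atm1-1 575, and 171 with only the groups compared and 1073 with no filter. TSO2 was called for sugar over mock under all 27 alternatives. With few counts, depth limits CDC6, which could not be tested where 10 counts in every library were required.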
